A study of Homo sapiens with 2 samples.

Results

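The genes encoded in the mitochondrial genome were described in PC9, a human lung adenocarcinoma cell line that is sensitive to inhibitors of the EGFR kinase, and in MTAC-P, an inhibitor-resistant line derived from it. Each line had 1 library of total RNA from cells grown in DMEM with 10% serum, and the growth protocol names no inhibitor for either culture. Although triplicates are mentioned in the series text, the table of each line holds 1 value per transcript. Pooling of cultures, and whether MTAC-P is a single clone, are not given in the sources used here. No difference below therefore has a replicate check, a p-value or a standard error. Members were the symbols that begin with MT-, followed by the hyphen. There were 13 such symbols among the 30843 in the tables. Of these, 12 lie on the mitochondrial genome and 1, the row named MT-ATP8, lies on chromosome 2 by its transcript ID. All 37 genes of the human mitochondrial genome were listed by transcript ID, and the 25 without an MT- symbol carried clone names that begin with J01415. These 25 comprised the true MT-ATP8 (listed as J01415.25), both ribosomal RNA genes (J01415.24 and J01415.4) and all 22 transfer RNA genes. They were read by ID and are given here under their usual gene names.

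Mitochondria keep a small circular genome of their own, which encodes some subunits of the respiratory chain together with the ribosomal and transfer RNAs needed to translate them inside the organelle. Both strands are transcribed as long precursors by the polymerase POLRMT with the factor TFAM, and the transfer RNAs between the other genes mark where the precursors are cut. The messenger RNAs encode core subunits of complex I (NADH dehydrogenase), complex III (cytochrome bc1), complex IV (cytochrome c oxidase) and complex V (ATP synthase). All other subunits, and all of complex II, are encoded in the nucleus and imported.

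The row that carries the symbol MT-ATP8 and the true gene are shown first because they give opposite readings of the same name. The true MT-ATP8 lies at chrM:8366-8572 on the plus strand, and the row under its symbol is MTATP8P2, a processed pseudogene at chr2:87824942-87825143 on the plus strand (GRCh38, GENCODE 29). Over 202 aligned bases they differ at 12, an identity of 94.1%, and their longest identical stretch is 40 bases. Capitals mark the bases that differ between them, and the last 5 bases of the 207 of MT-ATP8 lie beyond the copy.
MT-ATP8: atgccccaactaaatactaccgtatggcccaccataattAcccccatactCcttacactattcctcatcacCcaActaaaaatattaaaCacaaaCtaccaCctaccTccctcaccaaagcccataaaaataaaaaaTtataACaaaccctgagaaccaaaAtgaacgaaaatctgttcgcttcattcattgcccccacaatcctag
MTATP8P2: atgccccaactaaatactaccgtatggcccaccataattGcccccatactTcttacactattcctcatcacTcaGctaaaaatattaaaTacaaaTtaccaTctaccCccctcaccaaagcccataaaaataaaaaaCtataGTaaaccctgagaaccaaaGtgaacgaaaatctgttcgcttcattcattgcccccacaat
The row with the symbol MT-ATP8 is listed at 0 in both libraries. The true MT-ATP8 stood at 21785 in PC9 and 18219 in MTAC-P, in FPKM (fragments relative to the transcript's length and to all mapped fragments), the second highest of all 65535 transcripts in each table. A search by symbol alone thus lists at 0 a gene whose own row holds 3.14% of the PC9 sum and 2.66% of the MTAC-P sum.

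Neighbouring mitochondrial genes can share bases, so that a read there fits both and their separate values are uncertain. MT-ATP8 and MT-ATP6, which are read from a common messenger RNA, share 46 bases, and MT-ND4L and MT-ND4, likewise on a common messenger RNA, share 7. Both overlaps are printed with 20 bases on each side, at chrM:8507-8592 and chrM:10740-10786 on the plus strand, with the shared bases in capitals.
MT-ATP8/MT-ATP6: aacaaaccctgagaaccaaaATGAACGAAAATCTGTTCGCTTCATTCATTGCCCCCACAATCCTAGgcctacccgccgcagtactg
MT-ND4L/MT-ND4: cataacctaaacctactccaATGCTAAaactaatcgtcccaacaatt
In each case the capitals open with the ATG start codon of the downstream gene. MT-ATP6 and MT-CO3 share 1 base in the annotation.

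Every mitochondrial transcript with a value above 0 had a lower deposited value in MTAC-P than in PC9, and only MT-ND3 changed side when the libraries were scaled to a common sum or to a common median. These transcripts were all 13 messenger RNAs and both ribosomal RNAs, from 0.431% lower for MT-ND3 to 31.7% lower for MT-RNR2. On the log2((MTAC-P + 1)/(PC9 + 1)) scale, called the log2 ratio below, the 12 MT- genes of the mitochondrial genome had a median of -0.22 and the 13 messenger RNAs one of -0.23. All genes compared, the 11435 symbols whose 2 values averaged 1 FPKM or more, had a median of -0.02, and 52.4% of them lay below 0 and 47.6% above. No mitochondrial gene reached 2-fold, where 7.77% of all genes compared did, 3.48% as higher in MTAC-P and 4.29% as lower. None reached 1.5-fold either as deposited, a size met by 20.2% of all genes compared; MT-RNR2 passed it when the sums without mitochondrial transcripts were made equal (-0.59). The differences were thus small and in 1 direction, on values that are relative to each library's own total. In a bulk library, less mitochondrial RNA in each cell and fewer cells that are rich in it cannot be told apart.

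**Figure D1:**
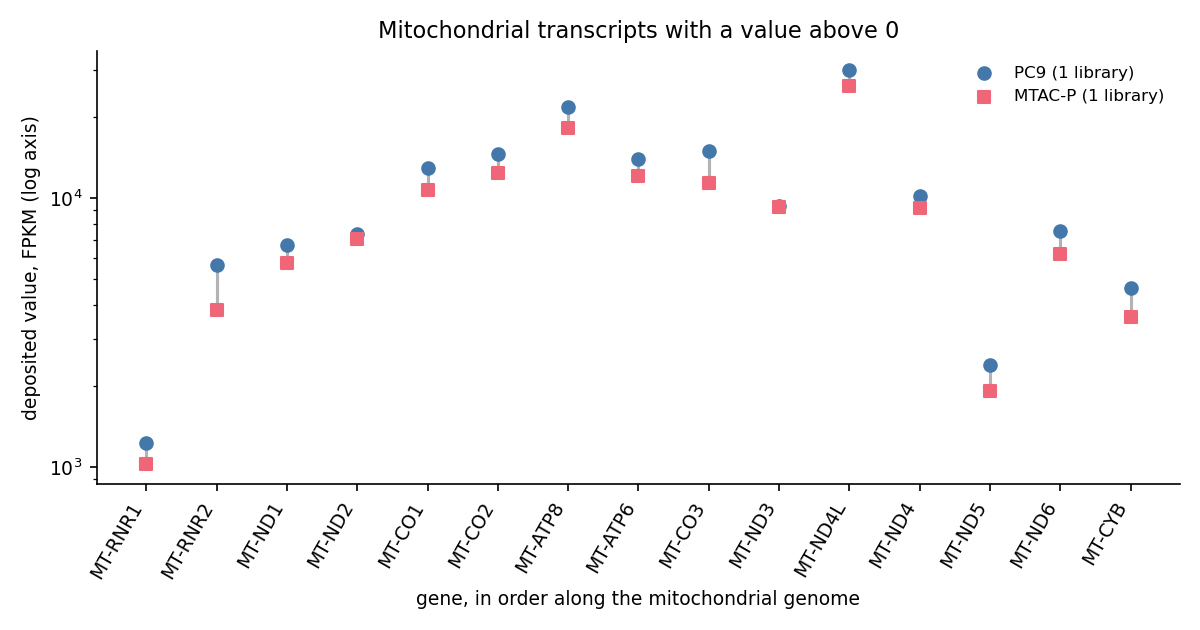
Deposited values (FPKM, log axis) of the 15 mitochondrial transcripts above 0, in their order along the genome, with circles for PC9 and squares for MTAC-P, 1 library each. Every square lies below its circle (for MT-ND3 this side depends on the scaling), from MT-RNR1 (1224 and 1022) at the lower end to MT-ND4L (29851 and 26178.5) at the upper end.

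Mitochondrial transcripts had many of the highest values in both tables. They held the first 5 places in PC9 and 4 of the first 5 in MTAC-P, and 8 of the first 10 in each. The highest nuclear transcript among those listed, of the ribosomal protein gene RPL39, ranked 7 in PC9 (11779.7 FPKM) and 3 in MTAC-P (12527 FPKM). The level of abundant genes in general did not move the same way. Outside the mitochondrial genome 74 symbols had a mean of at least 1000 FPKM, and 31.1% of them (23) lay below 0, with a median log2 ratio of 0.08 and a range from -0.45 to 0.85. Of these 74, 5 were at -0.20 or lower, and so were 11 of the 15 mitochondrial transcripts. This cutoff was not planned and lies next to the ratio of MT-ATP6, so the counts are a description only. The mitochondrial transcripts share precursors. All values are relative to each library's total, so the abundant nuclear genes are not an independent reference.

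The MT- genes made up 19.4% of the PC9 sum and 16.9% of the MTAC-P sum. These are sums over the 65535 listed transcripts, where the tables stop, so the shares of the whole libraries are not known. With the rows under clone names, the messenger RNAs made up 22.5% and 19.6%, the ribosomal RNAs 0.987% and 0.710%, and the transfer RNAs 0% in both. FPKM is a value per length, so short transcripts weigh as much as long ones in such a sum. Each value was also multiplied by its transcript's length, which approximates a share of the fragments of listed transcripts. All 37 genes together then took 12.8% in PC9 and 10.6% in MTAC-P. Transcripts without a known length were left out there. Those with one held 95.6% of the PC9 sum and 95.7% of the MTAC-P sum. The mitochondrial share was the smaller one in MTAC-P on either measure. The sum of all other listed transcripts was 530559 in PC9 and 546239 in MTAC-P.

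**Figure D2:**
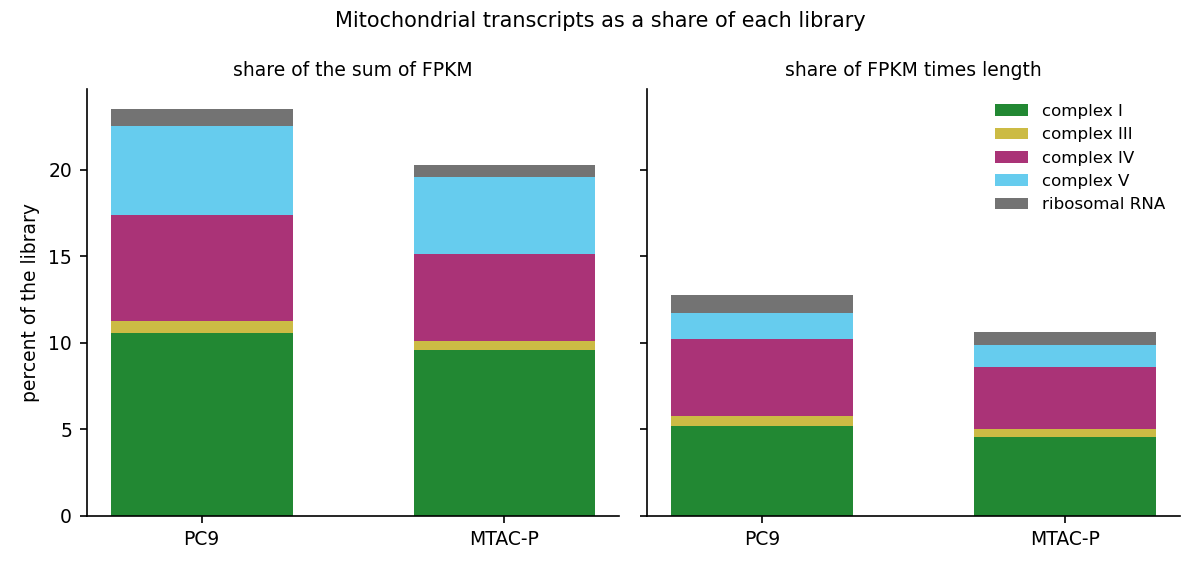
Share of the listed transcripts of each library (percent) taken by mitochondrial transcripts, as stacked bars by respiratory complex with the ribosomal RNAs on top. Shares are from summed FPKM on the left and from FPKM multiplied by transcript length on the right. The messenger RNA part goes from 22.5% to 19.6% on the left and from 11.7% to 9.87% on the right, and every complex has the smaller share in MTAC-P.

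Complex I takes electrons from NADH, and 7 of its core subunits are mitochondrial. MT-ND4L had the highest listed value in both libraries, 29851 and 26178.5 FPKM (PC9 is given first from here on). This is 4.30% and 3.82% of the sums. MT-ND4 stood at 10179 and 9157 (log2 ratio -0.15). On their common messenger RNA the MT-ND4L value was 2.93 times the MT-ND4 value in PC9 and 2.86 times in MTAC-P, so this proportion was nearly alike in the libraries. Because both genes lie on that messenger RNA, these values do not show more MT-ND4L than MT-ND4 molecules. MT-ND3 stood at 9304.5 and 9264 (-0.01), the smallest difference of all. MT-ND2 stood at 7349.8 and 7033 (-0.06) and MT-ND1 at 6668 and 5752 (-0.21). These 2 neighbours thus moved apart a little, with MT-ND1 at 0.907 of MT-ND2 in PC9 and 0.818 in MTAC-P. MT-ND5, the longest messenger RNA, was the least abundant, at 2393 and 1912 (-0.32). MT-ND6, the only messenger RNA gene on the minus strand, stood at 7565 and 6191 (-0.29). Use of strand in the counting was not given in the sources used here, and without it reads of MT-ND6 and of RNA from the plus strand over the same bases cannot be told apart. As a group the complex I messengers summed to 73310.4 and 65487.5 FPKM, with a median log2 ratio of -0.19, and they held the 4 smallest differences of the 13 messengers.

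Complex IV hands electrons to oxygen, and its catalytic core is formed by the MT-CO1, MT-CO2 and MT-CO3 products. MT-CO3 showed the largest difference of the messengers, at 14909 and 11411.5 FPKM (-0.39, or 23.5% lower). MT-CO1 stood at 12958 and 10703 (-0.28). MT-CO2 stood at 14543 and 12421 (-0.23). The group had a median of -0.28, and all 3 lay further below 0 than the complex I median. MT-CYB, which encodes cytochrome b and is the only mitochondrial gene of complex III, stood at 4607 and 3616 (-0.35). Among messengers, only MT-CO3 had a larger difference than MT-CYB.

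Complex V makes ATP from the proton gradient, and MT-ATP6 and MT-ATP8 encode subunits of its membrane part. MT-ATP6 stood at 13933 and 12124 FPKM (-0.20), and MT-ATP8 had a log2 ratio of -0.26. Their proportion was 1.564 in PC9 and 1.503 in MTAC-P. As these genes lie on a common messenger RNA, it does not show more MT-ATP8 than MT-ATP6 molecules. Directly downstream, MT-CO3 was above MT-ATP6 in PC9 and below it in MTAC-P, with MT-ATP6 at 0.935 of MT-CO3 in PC9 and 1.06 in MTAC-P. Between MT-CO3 and the next messenger, MT-ND3, the proportion went from 1.602 to 1.232. The largest and the smallest difference among messengers thus belong to genes that lie 68 bases apart, the length of the transfer RNA gene between them. Proportions within a library do not depend on how the libraries were scaled.

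**Figure D3:**
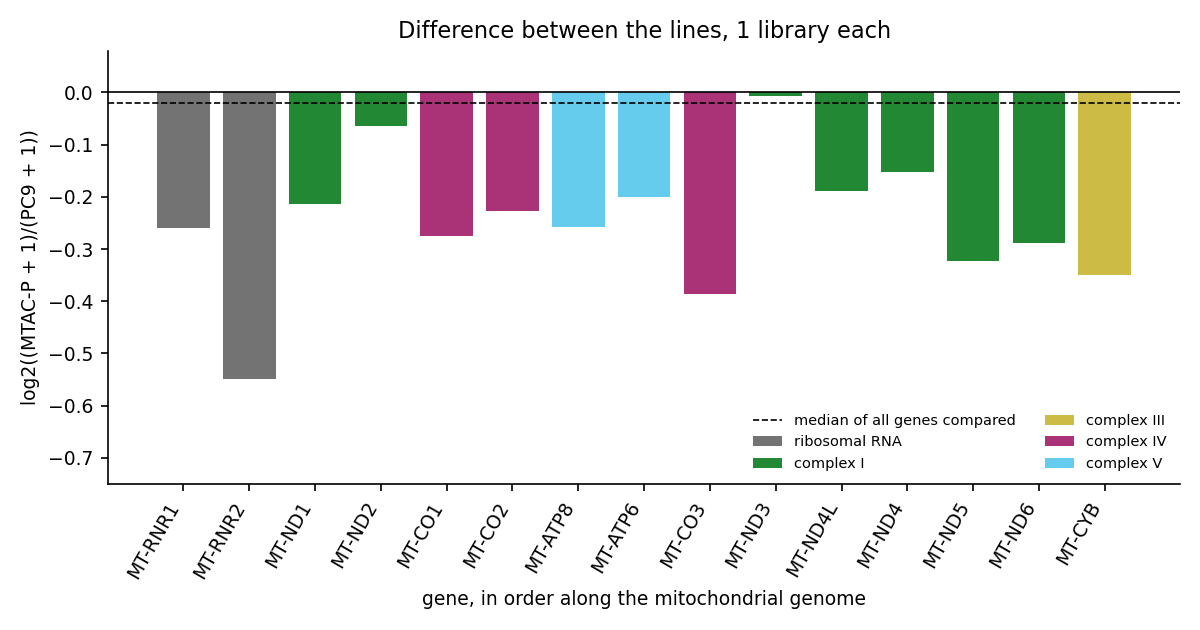
Log2 ratio of each mitochondrial transcript above 0, in genome order, as bars coloured by respiratory complex or ribosomal RNA, with a dashed line at the median of all genes compared (-0.02). All 15 bars point down (that of MT-ND3 points up after scaling to a common sum or median), from -0.01 for MT-ND3 to -0.55 for MT-RNR2, and none reaches 1.5-fold as deposited.

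The ribosomal RNAs form the 2 subunits of the mitochondrial ribosome. MT-RNR2, the RNA of the large subunit (chrM:1671-3229), stood at 5617 and 3839 FPKM (-0.55). MT-RNR1, the RNA of the small subunit (chrM:648-1601), stood at 1224 and 1022 (-0.26). MT-RNR2 thus showed the largest difference of all mitochondrial transcripts, while MT-RNR1 lay among the messengers. The MT-RNR2 value was 4.59 times that of MT-RNR1 in PC9 and 3.75 times in MTAC-P. Against MT-ND1, the next large gene downstream, MT-RNR2 went from 0.842 to 0.667. Both ribosomal RNAs were below most messengers in level. Selection of RNA after the extraction of total RNA was not given in the sources used here, and its part in these levels was not tested.

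All 22 transfer RNA genes were listed at 0 in both libraries. Of these, 8 lie on the minus strand. They are 59 to 75 nt long in the annotation. The shortest, MT-TS2 for serine (chrM:12207-12265, plus strand), and the longest, MT-TL1 for leucine (chrM:3230-3304, plus strand), are printed to show the size of the genes concerned.
MT-TS2: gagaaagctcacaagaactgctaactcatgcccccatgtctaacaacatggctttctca
MT-TL1: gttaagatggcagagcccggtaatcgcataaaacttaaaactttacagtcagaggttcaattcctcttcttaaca
Other short transcripts were listed at 0 as well. Of 361 transcripts outside the mitochondrial genome with at most 75 nt, 358 (99.2%) were at 0 in both libraries, and so were 823 of 824 from 76 to 100 nt. Of those with 207 to 300 nt, the size of MT-ATP8 and MT-ND4L, 85.9% were at 0. Among all 65535 listed transcripts, of any length, the values at 0 began at rank 39045 in PC9 and at rank 38300 in MTAC-P. An exact 0 can be a failed estimate, so the tables give no level for the transfer RNAs and no comparison between the lines.

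The order of the transcripts was nearly alike in both lines. Across the 13 messengers the log2 levels of the lines had a Pearson's r of 0.99 and a Spearman's rho of 0.97, a description only, since the points share their libraries. In both lines MT-ND4L and MT-ATP8 came first and second, MT-CO1 was the sixth, MT-ND1 the eleventh, and MT-RNR2, MT-CYB, MT-ND5 and MT-RNR1 closed the order. The differences between them were in the middle: MT-CO3 went from place 3 to 5, while MT-CO2 and MT-ATP6 each moved up by 1. MT-ND3 changed places with MT-ND4, and MT-ND2 with MT-ND6. Without replicate libraries it cannot be said which of these neighbours differ beyond their spread.

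As shares of the mitochondrial sum alone, MT-ND3 went from 5.71% to 6.67%, MT-ND2 from 4.51% to 5.07% and MT-ND4L from 18.3% to 18.9%. MT-ND5 and MT-ND6, also of complex I, went the other way, from 1.47% to 1.38% and from 4.64% to 4.46%. MT-CO3 went from 9.15% to 8.22%, MT-CO2, also of complex IV, from 8.93% to 8.95%, and MT-RNR2 from 3.45% to 2.76%. The complex I messengers together went from 45.0% to 47.2% and the complex IV messengers from 26.0% to 24.9%. Complex V was nearly level at 21.9% in both. These shares are free of the scaling between libraries, and the mitochondrial pool of MTAC-P held, as sums over their members, relatively more complex I and less complex IV and ribosomal RNA than that of PC9.

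Across the messengers, longer transcripts tended to have lower levels. The shortest, MT-ATP8 (207 nt) and MT-ND4L (297 nt), had the highest values and the longest, MT-ND5 (1812 nt), had the lowest. Log2 level against log2 length gave an r of -0.66 in PC9 and -0.68 in MTAC-P over 13 genes, which share their library and precursors. MT-CO1 (1542 nt) stood above this order and MT-ND3 (346 nt) below it. The part of length in the levels was not tested. The log2 ratio was related only weakly to length (r of -0.26), to the PC9 level (0.15) and to the position along the genome (-0.36).

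**Figure D4:**
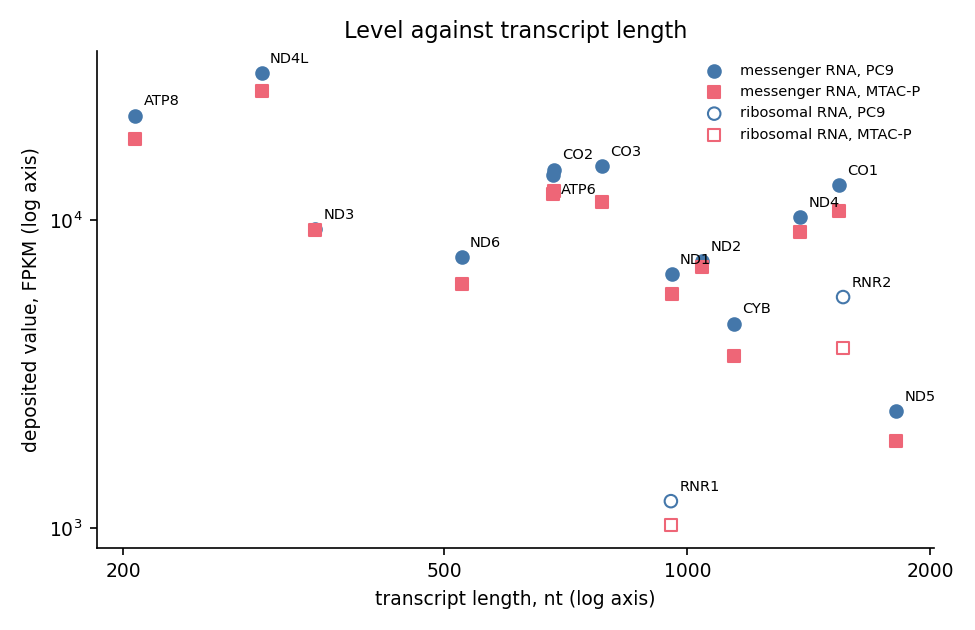
Deposited value (FPKM, log axis) against transcript length (nt, log axis) for the 13 messengers (filled) and the 2 ribosomal RNAs (open), with circles for PC9 and squares for MTAC-P. The messengers descend from MT-ND4L (297 nt, 29851 in PC9) to MT-ND5 (1812 nt, 2393 in PC9), and MT-RNR1 lies below all of them.

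Some nuclear copies of mitochondrial sequence also had values, and their reads may belong to the mitochondrial genes. A block of them lies on chromosome 1. MTCO1P12 (chr1:631074-632616, 98.6% identical to MT-CO1, listed under the symbol hsa-mir-6723) stood at 73.9 and 62.9 FPKM (-0.23), beside -0.28 for MT-CO1. MTND1P23 (chr1:629062-629433) stood at 31.7 and 17.7 (-0.80), beside -0.21 for MT-ND1. MTCO2P12 stood at 2.19 and 0.481 (-1.10), beside -0.23 for MT-CO2. MTCO3P12 stood at 1.84 and 0.399 (-1.02), beside -0.39 for MT-CO3. The log2 ratio was thus near the mitochondrial gene's own for MTCO1P12 and further below 0 for the other 3 copies. MTCO2P12 and MTCO3P12 had values near the 1 that is added before the ratio is taken. Their log2 ratios depend on that addition and are not comparable in size with those of the mitochondrial genes. These copies were at most 0.588% of the mitochondrial gene's own value in either library. Their closeness is shown by MTND1P23 and MT-ND1, which differ at 3 of 352 aligned bases. The first 150 aligned bases, at chr1:629081-629230 and chrM:3911-4060 on the plus strands, are given with differing bases in capitals.
MT-ND1: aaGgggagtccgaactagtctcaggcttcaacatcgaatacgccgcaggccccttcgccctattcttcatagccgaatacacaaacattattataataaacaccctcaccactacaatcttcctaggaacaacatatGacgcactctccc
MTND1P23: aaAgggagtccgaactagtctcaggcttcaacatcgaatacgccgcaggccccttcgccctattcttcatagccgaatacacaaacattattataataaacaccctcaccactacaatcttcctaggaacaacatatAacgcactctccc
The longest stretch that both share is 158 bases. Values of such copies are uncertain for this reason.

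Nuclear genes of the respiratory chain were compared as partners of the mitochondrial subunits. Of 36 nuclear complex I genes, 29 lay below 0 and 7 above (median -0.16), beside 52.4% below 0 over all genes compared. The most abundant were NDUFS5 (746 and 723 FPKM) and NDUFB9 (395 and 393). NDUFV1, which binds NADH, was the 1 member at 2-fold (17.5 and 5.31, -1.55), with 2 of its 12 coding transcripts listed. Complex II, which has no mitochondrial gene, had 3 of 4 below 0 (median -0.38), among them the catalytic subunit SDHA (98.0 and 69.0), while SDHC stood at 288 and 297. Of 8 nuclear complex III genes 5 lay below 0 (median -0.11), and the hinge protein gene UQCRH stood higher in MTAC-P (1151 and 1484) than in PC9. UQCRQ, another subunit of that complex, stood at 589.9 and 548. For complex IV 8 of 11 lay below 0 (median -0.26), with COX8A at 1139.98 and 843. COX6A1, of the same complex, stood at 729 and 732. COX5B, whose 1 coding transcript was listed, stood at 459 and 156 (-1.55) and was the 1 member at 2-fold. Of 16 nuclear complex V genes 12 lay below 0 (median -0.08), with ATP5J2 at 1129.6 and 1086. ATP5G3, for a subunit of the rotating ring, stood at 768 and 728. Coding coverage was complete for 10 of the 36 complex I genes and 0 of 4 in complex II. It was complete for 6 of 8 in complex III, 4 of 11 in complex IV and 6 of 16 in complex V. The counts, medians and sums of these nuclear genes thus describe their listed transcripts and not their full levels. Across the chain the medians of nuclear and mitochondrial subunits lay below 0, as did that of all genes compared (-0.02). Single nuclear genes lay on either side. The summed values of nuclear complex III genes were higher in MTAC-P (2667 and 2951 FPKM), and those of the other complexes were lower. The higher complex III sum rests on UQCRH (1151 and 1484), which rose by more than the sum did.

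Genes that copy and transcribe the mitochondrial genome did not lean one way. Of 14 compared, 7 lay above 0 and 7 below, with a median of -0.01 and none at 2-fold. SSBP1, which binds single-stranded mitochondrial DNA, stood at 223 and 199.8 FPKM (-0.16), and MRPL12, a ribosomal protein, at 186 and 164 (-0.17). TFAM and POLRMT were added after their values were seen, because of their role. TFAM stood at 83.2 and 95.0 (0.19), and POLRMT at 8.22 and 6.07 (-0.38), with none of its 3 coding transcripts listed.

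Genes that process, modify or degrade mitochondrial RNA were evenly split as well, with 16 above 0 and 16 below (median -0.01). LRPPRC, which stabilises mitochondrial messenger RNAs, stood at 156 and 182 FPKM (0.22). PNPT1, a ribonuclease of mitochondrial RNA decay, stood at 75.02 and 113 (0.58), from transcripts that are not among its coding ones in GENCODE. FASTKD1, of the FASTK family of RNA-binding proteins, was the 1 member at 2-fold (3.77 and 0.851, -1.37), with 1 of 5 coding transcripts listed.

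The translation apparatus lay near the median of all genes. Of 74 mitochondrial ribosomal protein genes, 43 lay below 0 and 31 above (median -0.04). MRPL33 stood at 278 and 332 FPKM and MRPS24 at 186 and 234. At 2-fold were MRPS27 (11.5 and 29.8, 1.30), MRPS25 (29.5 and 10.5, -1.40) and MRPS28 (60.2 and 27.0, -1.13), each with 1 coding transcript listed of several. Their median was thus close to that of all genes, unlike the ratio of MT-RNR2. Among 16 aminoacyl-tRNA synthetases 10 lay above 0 (median 0.02), with KARS, which also serves the cytosol, at 117 and 122 and IARS2 at 91.2 and 95.0. Of 11 translation factors 7 lay below 0 (median -0.05). The elongation factor TUFM stood at 66.4 and 64.9, and MRRF, which recycles ribosomes, at 58.5 and 60.3. TSFM, the exchange factor of TUFM, was at 2-fold (56.4 and 19.97, -1.45), with 2 of 8 coding transcripts listed. Of 8 regulators of mitochondrial biogenesis 5 lay below 0 (median -0.08), with the nuclear receptor ESRRA at 34.95 and 40.4. MYC, a broad activator of growth genes, stood at 30.2 and 43.1 (0.50).

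**Figure D5:**
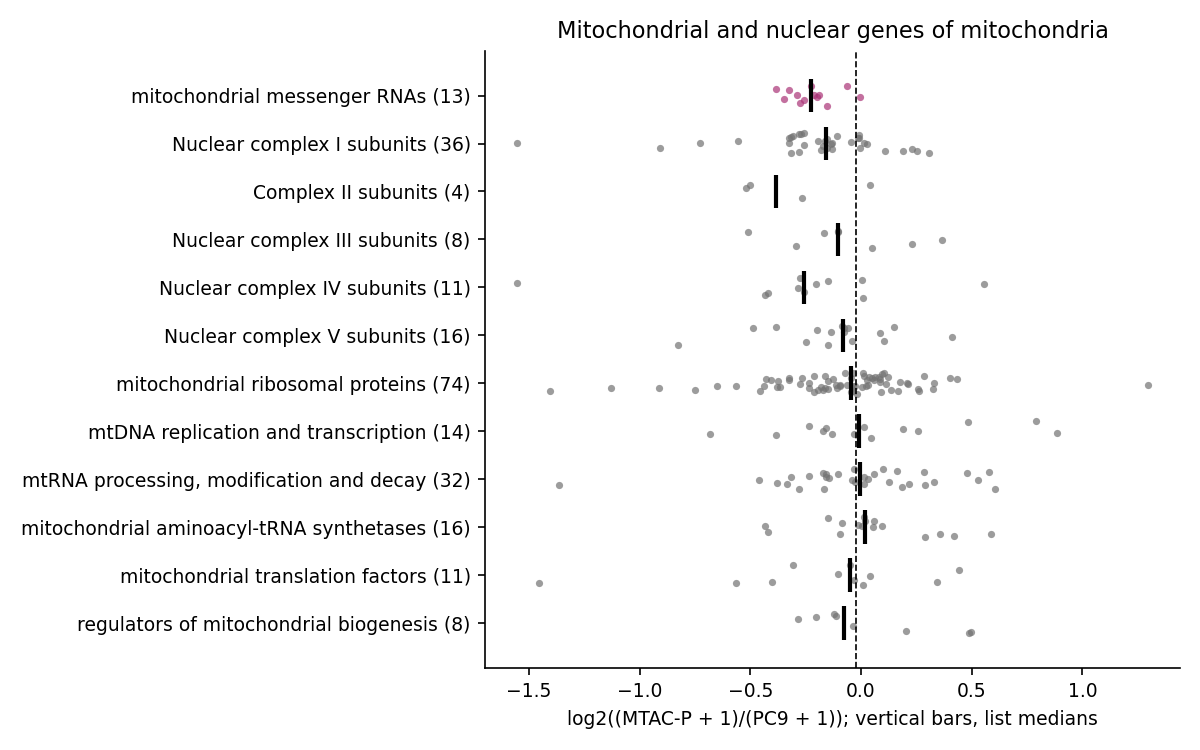
Log2 ratios of the 13 mitochondrial messengers (top row) and of nuclear gene lists of mitochondria (number compared in brackets), 1 point a gene, with vertical bars at list medians and a dashed line at the median of all genes compared (-0.02). The messengers lie between -0.39 and -0.01, and the nuclear subunits of complexes I and IV have medians of -0.16 and -0.26.

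The label of an epithelial line was checked against markers. All 8 epithelial markers passed the mean of 1 in these libraries, with KRT18 at 2328.5 and 2719.6 FPKM and KRT19 at 549 and 430. Of 8 leukocyte markers only CD68 did (22.2 and 28.8), of 6 fibroblast markers only COL1A1 (1.20 and 1.33), and of 3 listed endothelial markers only CDH5 (3.34 and 4.13). PECAM1, a further planned endothelial marker, had no listed symbol. PTPRC, the defining marker of leukocytes, stood at 0.0910 and 0.0460.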

How the data were processed

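Trim Galore, TopHat, Cufflinks and build hg38 are named in the submitters' processing notes; versions and annotation release were not given in the sources used here. Each deposited value belongs to 1 transcript and was taken as FPKM because those notes name Cufflinks, since the tables name no unit. They hold no counts, so the depth is unknown and no interval can be given. Tables stop at 65535 transcripts, so a nuclear gene's value is a sum over its listed transcripts. Libraries were assigned to lines by their sample records. Transcript IDs were matched to GENCODE 29 (GRCh38, the assembly that hg38 names; 84.5% matched), which gave positions, lengths and sequences. Values were summed per symbol, and log2((MTAC-P + 1)/(PC9 + 1)) was taken for symbols with a mean of at least 1. Copies were aligned locally with Biopython 1.88 (match 2, mismatch -3, gap opening -7, extension -2). Python 3.11.15, pandas 2.3.3 and matplotlib 3.10.9 were used. Only the log2 ratio and the 2-fold call were tested on simulated data, with known changes and no noise. With 1 library per line no test was made. All mitochondrial genes with a value above 0 were named, and of the transfer RNA genes only the shortest and the longest. From each other list the 2 most abundant members and up to 3 at 2-fold were named. The members and lists were chosen with earlier results of these data known. Alternatives concerned pseudocount, filter, scaling, centring, fold and the way shares are formed.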

Additional observations from a re-analysis of the deposited data

How the results depend on the processing

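The median log2 ratio of the MT- messengers ranged from -0.30 to -0.20 over 10 alternatives and that of the ribosomal RNAs from -0.49 to -0.38 over 9. The number of MT- genes at the fold cutoff was 0 in all 11 of its alternatives. These include cutoffs of 1.5-fold and of 4-fold, and 0 at 4-fold follows from 0 at 2-fold. Other pseudocounts and a minimum mean of 5 could hardly act on values this high. MT-RNR2 passed 1.5-fold with equal sums of non-mitochondrial transcripts (-0.59) and with the median of abundant nuclear genes at 0 (-0.63). The lower end of both ranges came from setting the median of abundant nuclear genes to 0, an alternative chosen after seeing the data, as were those that add rows by transcript ID. MT-ND3 changed sign with a common sum (0.01) or with the median of all genes set to 0 (0.01), so that 14 of 15 transcripts were then lower in MTAC-P. It stayed below 0 with equal sums of non-mitochondrial transcripts (-0.05) and with equal upper quartiles (-0.04). Values within 1.5 times of the reported one were taken as unmoved. The share of the MT- genes moved further with values multiplied by transcript length, to 11.2% in PC9 and 9.47% in MTAC-P, since that measure gives short transcripts less weight. The transfer RNA genes gave no median, since none passed the filter. No paired analysis was possible because there is only 1 library per line, and none could be left out. Depth is unknown, so differences as small as that of MT-ND3 cannot be set against counting error.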

Other observations

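By transcript ID, 134 nuclear copies of mitochondrial genes were listed. Of these, 111 were at 0 in both libraries, 23 were above 0 in at least 1 and 4 had a mean of at least 1. Their values summed to 113 FPKM in PC9 and 85.6 in MTAC-P, which is 0.0697% and 0.0616% of the sum of the mitochondrial genes.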
